A study of Mus musculus with 2 samples.

Results

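The genes described here are 10 marker genes of pericytes and fibroblasts, measured in 2 bulk RNA-seq libraries of mouse pituitary cells. They were chosen by symbol: Pdgfrb, Rgs5, Cspg4, Acta2, Tagln and Des mark the contractile cells of the vessel wall, and Pdgfra, Dcn, Lum and Ogn mark fibroblasts. All 10 were found among the 47069 genes of the deposited table, and all 10 averaged 1 CPM (a count scaled by the total of its library) or more over both libraries, as 16504 genes did. Whole pituitaries came from female C57BL/6 mice that were 10 to 12 weeks old and cycled at random. The glands were taken apart into single cells with collagenase and pancreatine, and each sample pooled 500000 to 700000 cells from 5 pituitaries. The cells of one sample went straight into RNA-Best, a stabilization buffer meant to preserve RNA inside intact single cells. The cells of the other went into RNAlater, a common RNA stabilizer that served as the reference. The labels name no transgene, deletion or drug treatment for either sample.

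Pericytes are the cells that wrap capillaries, and together with the smooth muscle of larger vessels they are called mural cells. Endothelial cells secrete the growth factor PDGF-B, which binds the receptor PDGFRβ on pericytes and keeps them on the vessel. Fibroblasts make the collagens and the small proteoglycans of the extracellular matrix, and many of them carry the related receptor PDGFRα. In the pituitary, where hormones are released into a dense capillary bed, both kinds of cell lie between the endocrine cells and the blood. Enzymes must free them from this matrix before they enter a suspension.

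Each stabilizer had 1 library, so the differences given here lack a replicate check, and the stabilizers were not tested against each other. The stabilizer, the cells of each pool and the preparation of each library cannot be told apart. In bulk RNA, fewer cells of a type and less RNA per cell cannot be told apart either. The RNA-Best library held 53915047 counts and the RNAlater library 44917492. Levels are in CPM of these totals, and intervals are 95% intervals that cover counting error only, since copies made by PCR are not independent molecules. Ratios are log2 ratios of RNA-Best over RNAlater with 0.5 CPM added, which understates the ratio of weakly expressed genes, and their intervals were computed on the counts with nothing added. The median ratio of all 16504 genes was -0.18, and other scalings raised it by 0.12 to 0.17. Markers of endocrine cells, the main cells of the gland, reached a sum of 313992 CPM with RNA-Best and 246678 CPM with RNAlater. Most of either sum was the hormone gene Prl, at 235654 and 172302 CPM, while the hormone gene Gh was at 61040 and 59379 CPM.

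The pericyte and fibroblast genes were lower in RNA-Best than in RNAlater by differing amounts. All 10 had a log2 ratio below 0, where 67.0% of all genes did, and 8 of the 10 lay below the median of all genes. Their median ratio was -0.67, or -0.49 once the median of all genes was subtracted. The counting interval lay wholly below equal levels for 9 of the 10, against 51.2% of all genes. The exception was Tagln. At least a 2-fold lower level was found for 2 of the 10, the receptors Pdgfrb and Pdgfra, against 4.99% of all genes. No member was at least 2-fold higher, as were 0.273% of all genes. Under TMM scaling the same limit was passed downward by 2.65% and upward by 110 of all genes, and the upward share of the genes past it was 20.1% instead of 5.18%. That share was 21.8% with size factors of DESeq2 and 14.1% when the top 2 genes were left out of the total. Under each of these scalings, 2 members stayed past the limit.

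**Figure D1:**
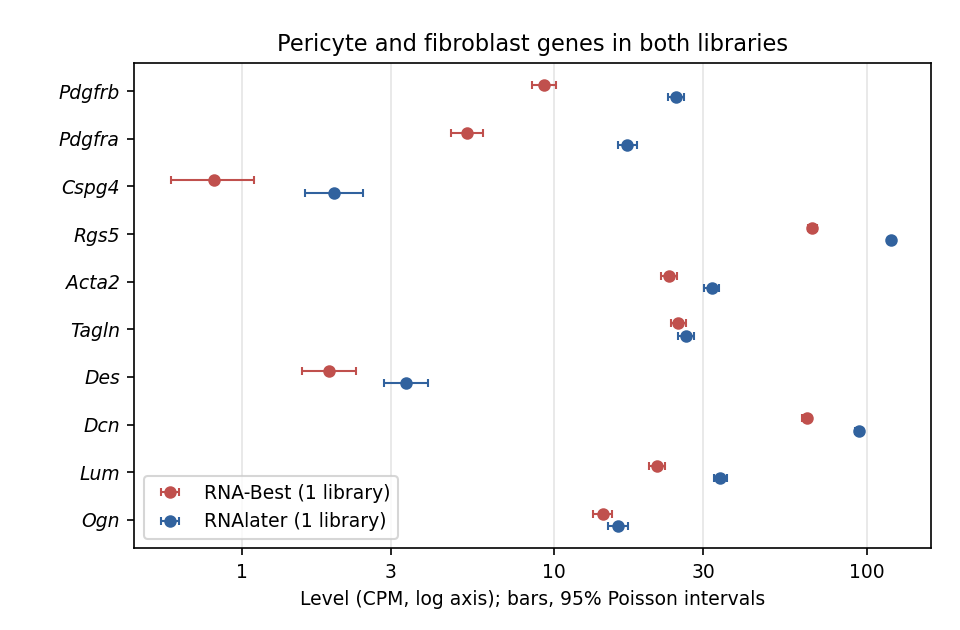
Levels of the 10 genes in CPM on a log axis, with 1 point for each library and 95% Poisson intervals of the counts as bars. Each RNA-Best point lies to the left of its RNAlater point, from Pdgfra (5.27 against 17.2 CPM) to Tagln (24.98 against 26.4 CPM), whose order turns under other scalings.

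The receptors stood furthest apart. Pdgfrb on chromosome 18 (ENSMUSG00000024620.11) encodes PDGFRβ, the receptor tyrosine kinase that defines pericytes. Its counts were 502 in RNA-Best and 1100 in RNAlater, or 9.31 CPM (8.51 to 10.2) and 24.5 CPM (23.1 to 26.0). The RNA-Best level was 38.0% of the RNAlater level and the intervals did not overlap. The log2 ratio was -1.35 (interval -1.55 to -1.24), at percentile 1.26 of all genes. Pdgfra (ENSMUSG00000029231.15, chr5:75152292-75198215) encodes the sister receptor of fibroblasts, which oligodendrocyte precursors also carry. It had 284.33 and 771 counts, or 5.27 CPM (4.67 to 5.92) in RNA-Best and 17.2 CPM (16.0 to 18.4) in RNAlater. This was the lowest ratio among the members, -1.61 (-1.91 to -1.51), with 30.7% of the RNAlater level left. Of the 10 members, Pdgfra, Rgs5 and Acta2 had counts that were not whole numbers, and the counting option behind these fractions is not given in the sources used here.

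The ligands of these receptors were lower as well. All 4 ligand genes were below the median of all genes, with a median ratio of -0.79 and a range from -0.95 to -0.31. Pdgfb, the ligand made by endothelial cells, was at 10.4 and 19.5 CPM, with a ratio of -0.88. Pdgfa had a ratio of -0.70, Pdgfc -0.95 and Pdgfd, which was at 11.6 and 14.4 CPM, -0.31. None of the 4 passed 2-fold. Of 14 genes that act downstream of the receptors, 13 were lower, where 67.0% of all genes were, with a median of -0.50. At least 2-fold lower were 3 of them, against 4.99% of all genes. Their transcripts are long (median 5.05 kb), and set against the trend of the ratio on transcript length over all genes, 8 of the 14 lay below it, with a median distance of -0.07. These 3 were Pik3r1 (-1.01), the regulatory subunit of PI3-kinase, the ubiquitin ligase gene Cbl (-1.33) and the adaptor gene Gab1 (-1.26). Pik3r1 no longer passed 2-fold under TMM (-0.83), with size factors of DESeq2 (-0.82) or with the top 2 genes left out of the total (-0.88). The most abundant were Stat3 (180 and 343 CPM, -0.93) and the phosphatase gene Ptpn11 (91.4 and 125 CPM, -0.45), while Nck1, an adaptor, had a ratio of 0.01. These proteins serve many receptors in every cell type, so their levels are not those of mural cells or fibroblasts alone.

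Rgs5 and Cspg4 complete the pericyte markers. Rgs5 (ENSMUSG00000026678.10, chr1:169655501-169695813) encodes a regulator that speeds the shut-off of G proteins and is among the most abundant transcripts of pericytes. With 3605.67 and 5386 counts, or 66.9 and 119.9 CPM, it was the member with the most reads in both libraries. Its ratio was -0.84 (-0.90 to -0.78), which left 55.8% of the RNAlater level. Cspg4 (ENSMUSG00000032911.5, chr9:56865033-56899870) encodes the proteoglycan NG2, carried by pericytes and by oligodendrocyte precursors. It was the scarcest member, with 44 and 89 counts, or 0.816 CPM (0.593 to 1.10) and 1.98 CPM (1.59 to 2.44). The added 0.5 CPM weighed on it most: its ratio was -0.91 with it and -1.28 (-1.84 to -0.74) without. With 0.1 CPM added instead, Cspg4 passed 2-fold and the number of members past it was 3.

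Other mural genes spread more widely than the members did. Of 18 listed, 14 averaged 1 CPM or more. Of these, 12 were lower, where 67.0% of all genes were, but only 8 lay below the median of all genes. Under each of the other scalings, 8 of the 14 were lower. The median was -0.56, and 3 were at least 2-fold lower, against 4.99% of all genes. Those 3 were Notch3 (-1.30), the receptor that matures mural cells, Abcc9 (-1.66) and the peptidase gene Anpep (-1.12), which was at -0.97 under TMM and -0.96 with size factors of DESeq2. Abcc9 and Kcnj8 encode the 2 kinds of subunit of one potassium channel of pericytes. Abcc9 was at 2.60 and 9.26 CPM, in the order RNA-Best and RNAlater, while Kcnj8 was at 11.7 and 11.3 CPM, a ratio of 0.06 (-0.11 to 0.23). Subunits that are assembled into the same channel thus had ratios that differed beyond counting error. The transcripts differ in length, at 7.499 kb for Abcc9 and 2.55 kb for Kcnj8. Cox4i2, a subunit of cytochrome oxidase, had the highest ratio of the list, 0.21 (-0.23 to 0.79). The most abundant were Rgs4 (111 and 119 CPM, -0.10) and Angpt1 (72.7 and 76.9 CPM, -0.08), the latter a ligand of the endothelial receptor Tie2. Among 6 measured relatives of Rgs5 in the R4 family of RGS genes, 4 were lower, none passed 2-fold, and the median was -0.23. They ranged from -0.54 for Rgs16 to 0.11 for Rgs2, which was at 551 and 509 CPM.

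Among the contractile genes, Acta2 and Tagln differed less than the receptors, Rgs5 and Cspg4 did. Acta2 (ENSMUSG00000035783.8, chr19:34241090-34255590, minus strand) encodes smooth muscle α-actin. It had 1256.55 and 1432.16 counts, or 23.3 CPM (22.04 to 24.6) and 31.9 CPM (30.3 to 33.6), a ratio of -0.44 (-0.56 to -0.34). Tagln (ENSMUSG00000032085.4, chr9:45929619-45936058, minus strand) encodes transgelin, also called SM22, which binds actin filaments in smooth muscle. It had 1347 and 1186 counts, or 24.98 CPM (23.7 to 26.4) and 26.4 CPM (24.9 to 28.0). The intervals overlapped, and the ratio of -0.08 (-0.19 to 0.03) turned to 0.09 under TMM, 0.10 with size factors of DESeq2 and 0.05 when the top 2 genes were left out of the total. Des (ENSMUSG00000026208.9, chr1:75360329-75368579) encodes desmin, the intermediate filament of muscle and of many pericytes. It had only 103 and 151 counts, at 1.91 CPM (1.56 to 2.32) and 3.36 CPM (2.85 to 3.94). Its ratio was -0.68 (-1.19 to -0.44 with nothing added), and this interval overlapped those of Rgs5 and Cspg4.

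**Figure D2:**
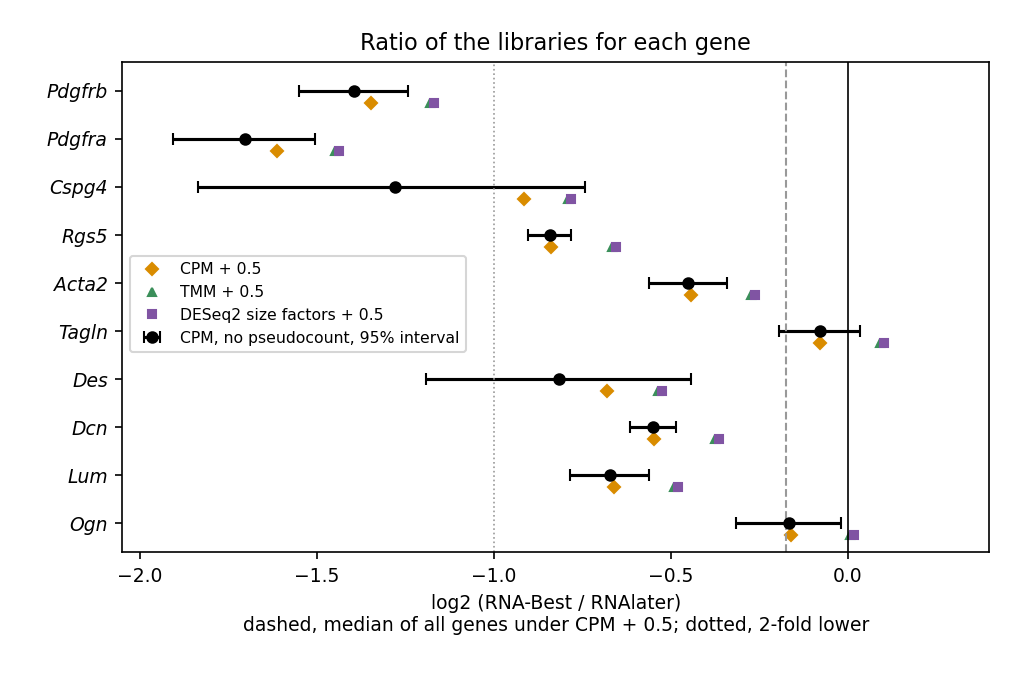
Log2 ratio of RNA-Best over RNAlater for each gene. Black points are ratios with no pseudocount and their 95% counting intervals, and colored points are ratios with 0.5 CPM added under 3 scalings. Pdgfrb and Pdgfra lie beyond 2-fold (dotted line) under all 3, while Tagln and Ogn lie around 0 and turn sign.

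Actins resemble each other in sequence, so the possible reads of Acta2 were compared with transcripts of other genes, counting exact matches only. Of 1985 possible reads of 51 bases, the read length used, in its longest coding transcript, 6 (0.302%) also matched transcripts of Actg1 or its pseudogenes. Those 6 reads fall in the longest stretch that Acta2 shares with the cytoplasmic actin Actg1, 56 bases at positions 1234 to 1289 of the Acta2 transcript. The coding stretch around it is in exon 8 of Acta2 at chr19:34243317-34243436 (GRCm38, minus strand), and is shown with the same codons of the cytoplasmic actins. Capitals mark bases that differ from Acta2.
Acta2: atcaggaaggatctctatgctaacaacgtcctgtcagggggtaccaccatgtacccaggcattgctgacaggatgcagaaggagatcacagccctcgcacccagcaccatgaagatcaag
Actg1: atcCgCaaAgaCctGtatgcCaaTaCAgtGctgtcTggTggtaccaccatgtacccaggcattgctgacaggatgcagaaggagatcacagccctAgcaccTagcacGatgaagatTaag
Actb: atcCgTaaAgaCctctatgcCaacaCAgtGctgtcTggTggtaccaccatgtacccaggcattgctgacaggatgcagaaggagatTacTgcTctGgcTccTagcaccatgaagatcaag

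Over these 120 bases, Actg1 (chr11:120346637-120346756) and Actb (chr5:142904067-142904186) each differed from Acta2 at 16 positions, an identity of 86.7%. Actb was interrupted earlier, with at most 47 bases in a row alike, so no read of the length used could match both it and Acta2 exactly here. Matches with mismatched bases were not examined. The cytoplasmic actins were far more abundant than Acta2. Actg1 was at 623 and 802 CPM and Actb at 875 and 1124 CPM, with ratios of -0.37 and -0.36, close to the -0.44 of Acta2. All 3 other actins that averaged 1 CPM or more were lower, where 67.0% of all genes were, and none passed 2-fold. Acta1, the actin of skeletal muscle, was the highest of them by ratio, at -0.25 (-0.60 to 0.03).

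The counts of Tagln have a different limit. Its longest transcript overlaps 2 genes on the opposite strand, Gm48529 and Pcsk7, and 48.0% of its possible reads also lie in their transcripts. Most of these lie in Gm48529, with 44.3% of the possible reads of Tagln, and 3.75% lie in Pcsk7. Pcsk7, a protease gene, was at 15.5 and 19.0 CPM, while Gm48529 was not among the genes of the deposited table. The strand setting of the counting is not given in the sources used here, so reads of Tagln and of these neighbors may not have been told apart. Des overlaps Gm15179 on the opposite strand over 5.78% of its possible reads, but that gene had 0 and 3 counts. Pdgfra shared 0.133% of its possible reads with other genes, and the remaining 6 members shared none.

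Other smooth muscle genes were lower without exception. All 10 that averaged 1 CPM or more were below the median of all genes, 3 were at least 2-fold lower, and the median was -0.80. The 3 were Myh11 (1.57 and 6.95 CPM, -1.85), the smooth muscle myosin heavy chain, Smtn (-1.33), which encodes smoothelin, and Mylk (-1.33), the kinase that switches myosin on. Tropomyosin Tpm1 was the most abundant, at 166 and 210 CPM, and had the highest ratio of the list, -0.34. The other 4 of the 14 listed, Cnn1, Pln, Actg2 and Myocd, stayed below the minimum, and Myocd, a coactivator of smooth muscle genes, had 1 count in each library. Among relatives of transgelin and calponin, 3 of 4 were lower, from Cnn3 (-0.50) to Tagln3 (0.38), a neuronal form, and Tagln2 (104 and 135 CPM) was at -0.37. All 4 measured partners of desmin among the intermediate filaments were lower. Synm was at least 2-fold lower (3.75 and 13.2 CPM, -1.69), Vim and Nes were at -0.83 and -0.86, and Gfap at -0.35.

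Smooth muscle genes are classically switched on by serum response factor through a DNA element called the CArG box. Srf, which encodes the factor, was at 145 and 193 CPM, a ratio of -0.41 (-0.46 to -0.37). The promoters of Pdgfrb, Tagln, Dcn and Lum were not searched. For the other 6 members, the 250 bases before the RefSeq start (GRCm38.p6) were searched on both strands. The search covered the box and forms with 1 inner base changed. Such a form was found only for Acta2, at 2 places, and no exact box was found in any of the 6. Of 32851 mouse promoters, 1.47% held an exact box and 7.24% a form with 1 changed base, so a match of this kind is not rare. The 2 places are shown because Acta2 is the textbook target, with the box in capitals, and a match of letters is no measurement of binding. Both lie before the RefSeq start but inside the span of Acta2 given above, which comes from another annotation and begins further upstream.
Acta2, chr19:34255440-34255465, minus strand, 84 bases before the start: gctgaggtCCCTATATGGttgtgtta
Acta2, chr19:34255390-34255415, minus strand, 34 bases before the start: tctttgctCCTTGTTTGGgaagcgag

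The fibroblast matrix genes lay between the receptors and Tagln. Dcn (ENSMUSG00000019929.15, chr10:97479609-97518143) encodes decorin, a small leucine-rich proteoglycan that binds collagen fibrils. It had 3466 and 4232 counts, or 64.3 CPM (62.2 to 66.5) and 94.2 CPM (91.4 to 97.1), a ratio of -0.55 (-0.62 to -0.49). Its relative Lum (ENSMUSG00000036446.4, chr10:97565128-97572703), which encodes lumican and lies next to it on chromosome 10, had 1151 and 1529 counts. That is 21.3 CPM (20.1 to 22.6) against 34.04 CPM (32.4 to 35.8), a ratio of -0.66 (-0.78 to -0.56). Ogn (ENSMUSG00000021390.5, chr13:49608046-49624501) encodes osteoglycin, of the same family. It had 770 and 720 counts, or 14.3 CPM (13.3 to 15.3) and 16.0 CPM (14.9 to 17.2), and the intervals of its levels overlapped. The ratio of Ogn was -0.16 (-0.32 to -0.02), close to the median of all genes, and it became 0.01 under TMM and 0.02 under DESeq2 size factors.

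Of 12 other small leucine-rich proteoglycans, 6 averaged 1 CPM or more. All 6 were lower, where 67.0% of all genes were, with a median of -0.51. Bgn, which encodes biglycan, was at 31.8 and 64.3 CPM (-1.004), and Prelp was at 20.4 and 50.7 CPM (-1.29). Both thus passed 2-fold, where 4.99% of all genes were at least 2-fold lower. Bgn no longer did under TMM (-0.83), with size factors of DESeq2 (-0.82) or with the top 2 genes left out of the total (-0.88), which left Prelp. Aspn had the highest ratio, -0.13. Of 24 other fibroblast genes that averaged 1 CPM or more, 21 were lower, against 67.0% of all genes. At least 2-fold lower were 4, against 4.99% of all genes, and the median of -0.36 was nearer to that of all genes. The 4 were matrix genes with long transcripts: Col1a1 (-1.37), Col6a2 (-1.16), Col6a3 (-1.72) and Fn1 (-1.74), which encodes fibronectin. Col6a2 moved to just under 2-fold under TMM and, at -0.99, with size factors of DESeq2, so that 3 genes stayed past it. The partner of Col1a1 in type I collagen, Col1a2, was the most abundant of the list at 376 and 425 CPM. It had a ratio of -0.18 (-0.20 to -0.15). The transcripts are 5.35 kb long for Col1a2 and 5.93 kb for Col1a1. Mgp, a small matrix protein, was at 52.9 and 68.3 CPM (-0.37), and Fap, a protease of activated fibroblasts, had the highest ratio, 0.17 (-0.21 to 0.63).

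**Figure D3:**
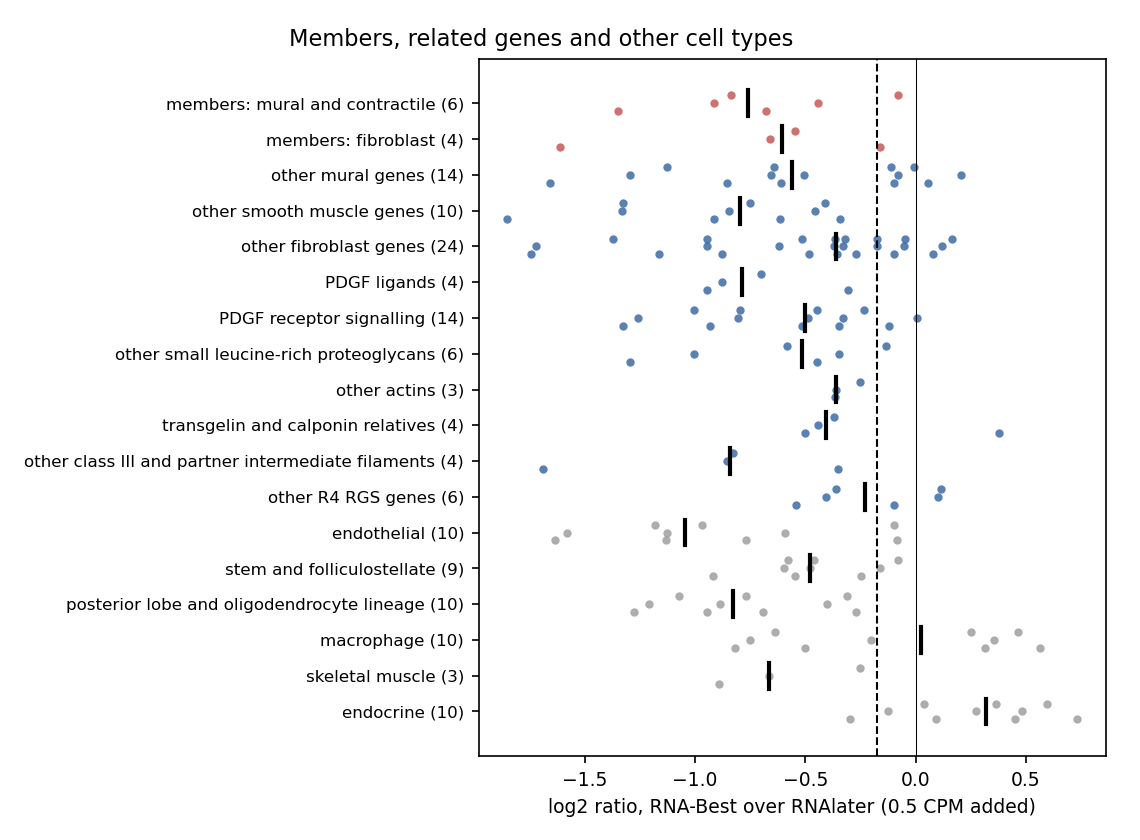
Log2 ratio of each gene averaging 1 CPM or more in the members (red), related genes (blue) and markers of other cell types (grey), with the number of genes in parentheses and the list median as a black bar. The dashed line marks -0.18, the median over all genes. The median of every related list lies to its left, and those of macrophage and endocrine markers lie to its right.

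Compared per kilobase of transcript, the order of the members was the same in both libraries. Dcn was highest, at 36.6 CPM per kb in RNA-Best and 53.6 in RNAlater, ahead of Rgs5 at 16.3 and 29.3. Tagln (15.7 and 16.6 CPM per kb) and Acta2 (11.5 and 15.7) came next. Neighbors whose intervals overlapped were Rgs5 and Tagln, and Pdgfra and Des, in RNA-Best, and Tagln and Acta2 in RNAlater. Lum (8.72 and 13.9) and Ogn (5.57 and 6.25) were followed by Pdgfrb (1.72 and 4.52), Pdgfra (0.772 and 2.51) and Des (0.631 and 1.11). Cspg4 closed the order at 0.1005 and 0.244 CPM per kb. Summed without regard to length, the members came to 232 CPM with RNA-Best and 369 CPM with RNAlater, and the log2 ratio of these sums was -0.67 (-0.70 to -0.64). Rgs5 and Dcn together made up most of either sum, with 28.8% and 27.7% in RNA-Best and 32.5% and 25.5% in RNAlater.

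Ratios of counts within a library do not depend on how the libraries were scaled, and several of them differed between the libraries. For each count of Pdgfrb there were 7.18 counts of Rgs5 in RNA-Best and 4.90 in RNAlater, a 1.47-fold difference (1.31 to 1.65). The same comparison for Cspg4 gave 0.0876 and 0.0809, which did not differ beyond counting error (1.08, 0.726 to 1.60). For Pdgfra against Pdgfrb it gave 0.566 and 0.701, a ratio of 0.807 (0.677 to 0.962). Among the contractile genes, there were 1.07 counts of Tagln for each of Acta2 in RNA-Best and 0.828 in RNAlater, a ratio of 1.29 (1.16 to 1.44). Des against Acta2 (0.777, 0.592 to 1.02) was not separated from equality by its interval. Among the fibroblast genes, Lum kept nearly its proportion to Dcn (0.332 and 0.361, ratio 0.919, 0.840 to 1.01). Ogn made up more relative to Dcn in RNA-Best (0.222 against 0.170, ratio 1.31, 1.17 to 1.46), and Pdgfra less (0.0820 against 0.182, ratio 0.450, 0.388 to 0.520). Within each group of markers, ratios thus differed beyond counting error. The widest of the gaps computed was that of Pdgfrb to Tagln, 0.373 in RNA-Best and 0.927 in RNAlater, a ratio of 0.402 (0.352 to 0.459). This pair joins the lowest and the highest log2 ratio among the mural and contractile members, so a wide gap follows from its choice. Their transcripts are 5.42 and 1.60 kb long, and the reads of Tagln carry the limit given above.

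Transcript length moved with these differences. Over all genes the median ratio fell from 0.29 for transcripts of up to 1 kb to 0.06 at 1-2 kb, -0.12 at 2-3 kb, -0.26 at 3-4 kb, -0.43 at 4-6 kb, -0.67 at 6-10 kb and -0.91 above 10 kb. The Spearman correlation of the log2 ratio with length was -0.66 over all genes and -0.88 over the 10 members, which share their libraries and are given as a description. With the longest transcript of any type in place of the coding one, which changes the length of Dcn from 1.76 to 4.69 kb, it was -0.84 over the members. Over the 58 mural, muscle and fibroblast genes, members included, it was -0.75. The members with the shortest transcripts, Tagln (1.60 kb) and Dcn (1.76 kb), and the longest, Cspg4 (8.12 kb) and Pdgfra (6.83 kb), bracket the others. Set against a smooth trend of the ratio on length, all 10 members lay below it, where 48.9% of all genes did, with a median distance of -0.48. The distance was -0.97 for Pdgfra, -0.84 for Pdgfrb, -0.55 for Dcn, -0.54 for Lum, -0.49 for Rgs5 and -0.48 for Des. It was -0.39 for Acta2, -0.20 for Cspg4, -0.11 for Tagln and -0.02 for Ogn, which was on the trend. The distance of Dcn rests on its coding transcript and shrank to -0.15 with the longest transcript of any type, a retained intron of 4.69 kb. None of the 10 members was 2-fold below the trend. Lying below it was not particular to the members. All 10 endothelial markers and all 9 markers of stem and folliculostellate cells did too, with median distances of -0.74 and -0.36. Among the related lists, the median distance was -0.65 for the PDGF ligands, -0.49 for smooth muscle genes, -0.21 for mural genes, -0.18 for fibroblast genes, -0.26 for the other small proteoglycans and 0.20 for the R4 family of RGS genes.

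**Figure D4:**
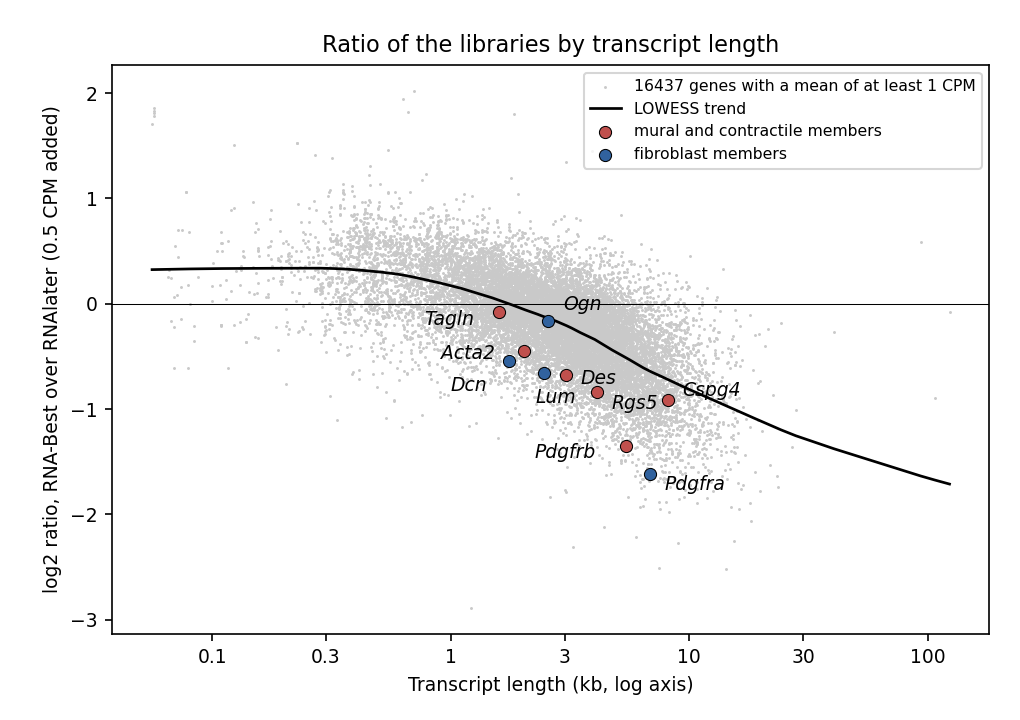
Log2 ratio of RNA-Best over RNAlater against the length of the longest protein-coding transcript (log axis) for 16437 genes (grey), with the LOWESS trend as a black line. The 10 members, mural and contractile in red and fibroblast in blue, lie below the trend from Pdgfra (-0.97 from it) to Ogn (-0.02).

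Within their own length classes the receptors were still near the lower end. Pdgfrb was at percentile 0.884 of the 3053 genes of 4-6 kb, of which 6.42% were at least 2-fold lower, and Pdgfra at percentile 1.999 of the 1651 genes of 6-10 kb, of which 21.9% were. Lum was at percentile 5.00 of those of 2-3 kb. Dcn was at percentile 3.50 of the genes of 1-2 kb by its coding transcript, but at percentile 34.1 of those of 4-6 kb by its longest transcript of any type. Des (10.2), Rgs5 (13.04) and Acta2 (14.2) followed, and Cspg4 (27.9), Tagln (32.6) and Ogn (43.8) lay nearer to the middle of their classes.

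Markers of other cells in the suspension moved along with the members in part. All 10 endothelial markers were lower, against 67.0% of all genes, and 5 of them at least 2-fold, against 4.99%. Their median ratio was -1.05 and their summed level 424 and 847 CPM. Under TMM and with size factors of DESeq2, 8 of the 10 were lower, and 3 and 2 of them, respectively, at least 2-fold. The endothelium is the tissue that pericytes cover, and its markers were further from the median of all genes than the members were. All 9 markers of stem and folliculostellate cells were lower (median -0.48, 375 and 522 CPM), with none past 2-fold. Of 12 markers of the posterior lobe and the oligodendrocyte lineage, whose precursors share Pdgfra and Cspg4, 10 averaged 1 CPM or more. The lineage genes Olig2 (4 and 4 counts) and Sox10 (16 and 25 counts) stayed below this minimum. All 10 that reached it were lower, 3 at least 2-fold, with a median of -0.83 and a summed level over the 12 of 211 and 335 CPM. These transcripts are long as well (median 4.75 kb), 7 of the 10 lay below the length trend with a median distance of -0.23, and 2 stayed past 2-fold under each other scaling. Macrophage markers were lower for 5 of 10 (median 0.02, 215 and 200 CPM), and endocrine markers for 2 of 10 (median 0.32). The transcripts of these 2 lists are short (median 1.22 kb for macrophage and 0.969 kb for endocrine markers). Their median distances from the length trend were 0.03 and 0.18. Of 9 markers of skeletal muscle, which also expresses Des, 3 averaged 1 CPM or more (Pax7, Acta1 and Ttn) and the 9 summed to 11.4 and 17.9 CPM. Pax7, which in the pituitary also marks the melanotropes of the intermediate lobe, held 6.58 and 10.7 CPM of these sums and gave the list median of -0.66. The defining factor gene Myod1 was at 0 in both libraries. The part of the other cells, of transcript length and of the abundant hormone transcripts in the members' ratios was not tested.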

How the data were processed

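Poly(A) RNA of 1 RNA-Best and 1 RNAlater sample was measured by single-read sequencing after extraction with an Agilent kit and library preparation with an Illumina TruSeq mRNA kit. The authors deposited 1 table of estimated counts per gene, not normalized, with 47069 genes and 1 column per library, 53915047 and 44917492 counts in all. The submitters' processing notes name STAR 2.5.1b, featureCounts 1.5.0-p1 and the build mm10. The strand setting and the option that divided reads are not given in the sources used here.

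Counts were scaled to CPM by library total. Log2 ratios used a pseudocount of 0.5 CPM, and genes entered with a mean of at least 1 CPM. A gene was called at a 2-fold difference. Whole numbers, obtained by rounding the counts, served for exact Poisson intervals of levels, exact conditional binomial intervals of ratios, and scaling factors, by TMM in edgeR 4.0.16 and by the median of ratios in DESeq2 1.42.0 (R 4.3.3). A count of 0 allows up to 3 counts, 0.0556 and 0.0668 CPM in the respective libraries. With 1 library per group, no p-value is given.

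Symbols, coordinates and lengths of the longest protein-coding transcript came from GENCODE M21 (GRCm38), which matched 98.8% of identifiers (for Dcn the longest transcript of any type is a longer retained intron), and promoters from RefSeq (GRCm38.p6). Length trends were fitted by LOWESS (span 0.2) in statsmodels 0.14.6 with Python 3.11.15. The steps were tested on simulated data.

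The members and the related lists were chosen with earlier results of these data known. Of each related list, the genes with the highest and lowest ratio, the 2 most abundant and those past 2-fold were named, up to 6 a list. Lists of other cell types were not named by this rule, so their genes past 2-fold are counted but not named. Pdgfa, Kcnj8, Cnn1, Pln, Actg2, Myocd, Myod1, Col6a2, Olig2 and Sox10 are outside that rule, being chosen once their values had been seen. Alternatives were scaling, pseudocount, filter, depth and length correction.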

Additional observations from a re-analysis of the deposited data

How the results depend on the processing

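Of 98 recomputed ratios of single members, 93 kept their sign under the alternatives, and the 5 others were those of Tagln and Ogn under other scalings, given above. A change of pseudocount or filter cannot turn the sign of a member's ratio. Many of the 93 were thus fixed beforehand, and their number is no measure of stability. The number of members at least 2-fold lower, 2, became 0 with the length trend removed, also with lengths of the longest transcript of any type, and 1 among the 7 members with whole counts, which leave out Pdgfra. The median ratio of the members (-0.67) was -0.51 under TMM, -0.50 under DESeq2 size factors, -0.57 with the top 2 genes left out of the total, -0.45 with 5 CPM added, -0.48 with the length trend removed and -0.46 with lengths of any transcript type. Relative to all genes it was -0.34 with 5 CPM added and -0.67 with no filter. The summed ratio (-0.67) was -0.49 under TMM, -0.48 under DESeq2 size factors, -0.54 with the top 2 genes left out of the total, -0.55 over members with whole counts and -0.62 without Rgs5 and Dcn. It has no value with the length trend removed. All 10 related lists had a median below that of all genes, and with the length trend removed 9 did. The exception was the R4 family of RGS genes. Of 100 recomputed list medians, 98 kept their sign. The length of any transcript type and the choices of members were added after the data were seen. At 44 and 89 counts, Cspg4 is the member most limited by depth. No paired analysis was possible because each stabilizer had 1 library, and none could be left out.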
